A study of Bos taurus with 30 samples.

Results

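The miR-30 family was examined in small RNA libraries of the hypothalamic arcuate nucleus (ARC) of bull calves. Its members were taken by name as bta-miR-30a-5p, bta-miR-30b-5p, bta-miR-30c, bta-miR-30d, bta-miR-30e-5p and bta-miR-30f (the prefix marks Bos taurus and is left out below), each on its 5p arm or listed with no arm, which gave 6 of the 1030 mature miRNAs in the deposited table. Of those 1030, 863 had a read in at least 1 library and 476 passed the filter on low values, all 6 members among them. The study compared 30 Holstein-Friesian bulls fed 1 of 2 diets between 2 and 12 weeks of age, and asked how early nutrition acts on the tissue that steers reproductive development. HI calves (n = 15) were offered 1.5 kg of milk replacer in 10 litres each day with concentrates to appetite, and MOD calves (n = 15) 0.5 kg of milk replacer in 4 litres with 0.5 kg of concentrates. Each calf gave 1 library, made from ARC tissue taken at 12 weeks of age. The calves came from several farms and sires, which the labels do not give for each calf.

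A miRNA guides the silencing complex to messenger RNAs chiefly through its seed, the short stretch near its 5′ end. The miR-30 members all carry one seed and therefore have largely shared predicted targets, while the rest of the sequence splits them into 2 kinds, with miR-30a, miR-30d and miR-30e of one kind and miR-30b, miR-30c and miR-30f of the other. The family is abundant in most tissues and restrains, among others, the autophagy gene BECN1 and genes of cell fate and matrix remodelling. In the rodent hypothalamus miR-30 represses Mkrn3, a brake on the onset of puberty, which makes the family of interest in the ARC of young bulls.

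Levels are given as CPM, reads per 1000000 of a library size scaled by TMM, a method that keeps the most abundant miRNAs from setting the scale of a library. A library held between 6291376 and 21083250 reads on miRNAs. The libraries fell into 21 shallower ones (12 HI and 9 MOD, up to 8988039 reads) and 9 deeper ones (3 HI and 6 MOD, at least 17193358 reads). The 9 calves with the lowest animal codes (7 HI and 2 MOD, all in the shallower class) stood apart from the other 21 (8 HI and 13 MOD) in an earlier look at all miRNAs, and the labels do not say what the codes stand for. In 9 calves (5 HI and 4 MOD) miRNAs typical of the pituitary, the gland below the ARC, were high, by a list score above the widest gap between calves. The summed CPM of the 10 miRNAs of that list ran from 2325 to 100739 in the HI calves and from 2289 to 84373 in the MOD calves, with none of the 10 at 0 in every library. Neuronal miRNAs summed to between 22966 and 98378 CPM, and were present in every library. Markers of vascular smooth muscle, miR-143 and miR-145, summed to between 34665 and 315266 CPM.

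The family was abundant in every calf, and its highest member, miR-30a-5p, was at a median 36.7 times the level of its lowest, miR-30f. MiR-30a-5p had 19562 ± 3424 CPM (SD, n = 30) and was the 11th most abundant of the 476 miRNAs tested. MiR-30d followed at 8523 ± 1070 CPM and miR-30e-5p at 7971 ± 985 CPM. MiR-30c had 2288 ± 219 CPM, miR-30b-5p 1960 ± 351 CPM and miR-30f 499.8 ± 80.4 CPM. These levels rested on 115485 to 474076 reads per library for miR-30a-5p and on 2654 to 12217 for miR-30f, so counting error was small for each member. Together the members took between 3.39% and 4.88% of all reads counted on miRNAs. Of the summed family level, miR-30a-5p made up 47.7%, miR-30d 20.9%, miR-30e-5p 19.6%, miR-30c 5.68%, miR-30b-5p 4.86% and miR-30f 1.24%, as means over the 30 calves.

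**Figure D1:**
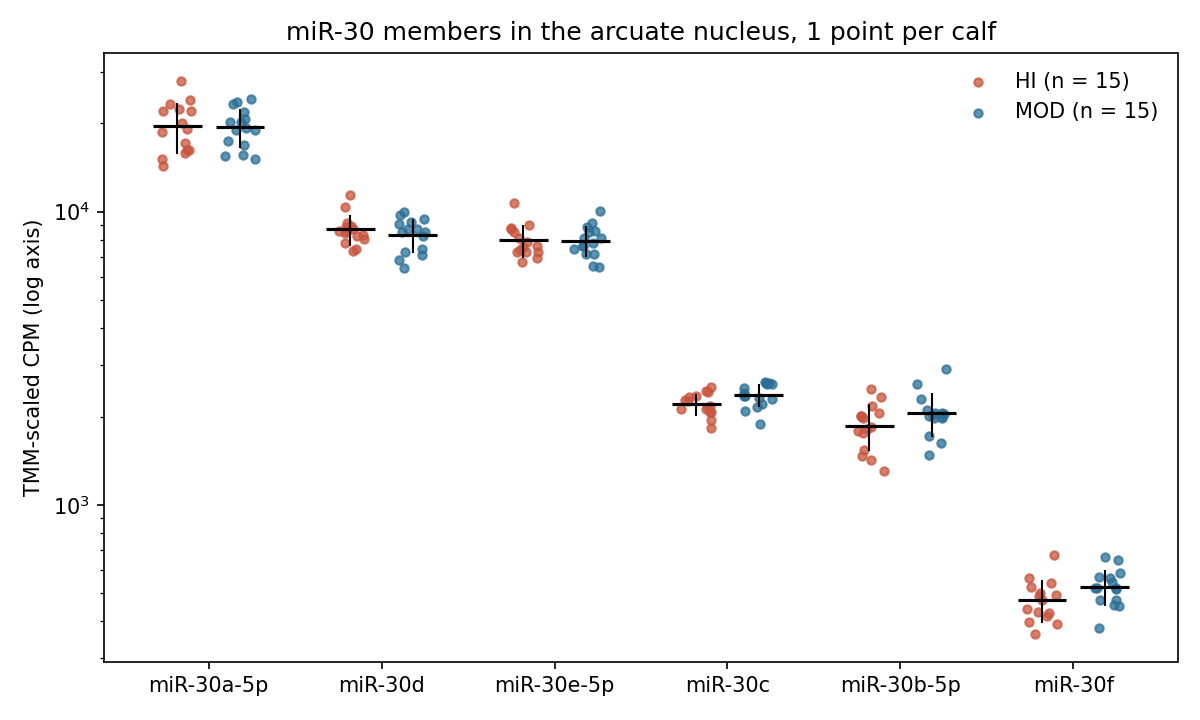
Level of each miR-30 member in TMM-scaled CPM on a log axis, 1 point per calf, with HI in red and MOD in blue (n = 15 each), horizontal bars at the mean and vertical bars of 1 SD. The means fall from miR-30a-5p to miR-30f, with miR-30d close to miR-30e-5p and miR-30c close to miR-30b-5p, and the points of the diets overlap for each member.

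The order of the members was set by their mean CPM in these 30 libraries. Each step was then tested on ratios within a library, which no scaling between libraries can change. As the steps were chosen from the same values, the p-values describe how steady each step was across calves. MiR-30a-5p exceeded miR-30d in 30 of 30 libraries, by a mean log2 ratio of 1.19 ± 0.20 (SD, n = 30). MiR-30e-5p exceeded miR-30c in 30 of 30 (1.80 ± 0.19) and miR-30b-5p exceeded miR-30f in 30 of 30 (1.97 ± 0.28). For these 3 steps the paired two-sided permutation p was 1e-05, the smallest that the resamples can give, and 1.67e-05 after Benjamini-Hochberg adjustment over the 5 steps. The other 2 steps were small. MiR-30d exceeded miR-30e-5p in 26 of 30 libraries by a log2 ratio of 0.096 ± 0.10 (adjusted permutation p = 5e-05), and miR-30c exceeded miR-30b-5p in 26 of 30 by 0.24 ± 0.22 (adjusted permutation p = 5e-05). In the 9 deeper libraries alone miR-30d and miR-30e-5p did not differ beyond their spread (log2 ratio 0.036 ± 0.12, exact permutation p = 0.371). Reads of mature miRNAs need no scaling by length, but members can be ligated and matched to the reference with unequal efficiency, and this was not measured.

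In the RefSeq annotation of the ARS-UCD2.0 assembly the 6 genes lie side by side in 3 pairs, each pair joining a gene of one sequence kind to a gene of the other. MIR30A and MIR30F neighbour each other on chromosome 9, MIR30A inside LOC132346186, listed as protein coding, and MIR30F between that gene and OGFRL1. MIR30C and MIR30E are neighbours on chromosome 3, both within NFYC, which encodes a subunit of the transcription factor NF-Y. MIR30D and MIR30B are neighbours on chromosome 14 and overlap no other listed gene. The deposited values rest on the older ARS-UCD1.2, so no positions are given.

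None of the 6 members was called as different between the diets. At an adjusted p under 0.1 with a fold change above 1.5 in limma, 0 of 6 members and 0 of the 476 miRNAs tested (0%) were called. At an unadjusted p under 0.05, 0 of 6 members passed against 21 of 476 miRNAs (4.41%), 8 of them higher (1.68%) and 13 lower (2.73%) in the HI calves, while DESeq2 called 1 miRNA, which was no member, and edgeR called 0. With the pituitary score as a covariate miR-30b-5p had an unadjusted p of 0.0364 in limma (adjusted p = 0.711), where 31 of 476 miRNAs passed. The 95% interval of each member's difference lay inside a fold change of 1.5 in either direction, between log2 bounds of -0.34 and 0.20 over the 6 members. The p-values measure the spread between calves.

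MiR-30a-5p, for which BDNF, a growth factor of neurons, is a known target, was spread over 14368 to 27996 CPM in the HI calves, with a median of 19216. In the MOD calves it lay between 15174 and 24336 CPM with a median of 19331. Thus 7 of 15 HI calves were above the MOD median, and the highest value of all was that of HI calf A37824. The log2 difference of HI minus MOD was 0.0042 (SE 0.093, adjusted p = 0.986 in limma, unadjusted permutation p = 0.957).

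MiR-30d lay between 7329 and 11417 CPM in the HI calves (median 8566) and between 6411 and 9951 CPM in the MOD calves (median 8545), and miR-30e-5p between 6719 and 10695 CPM (median 7615) and between 6471 and 10074 CPM (median 7805). Calf A37824 was again the highest for both. For miR-30d 2 HI calves lay above every MOD calf and 4 MOD calves below every HI calf, and for miR-30e-5p the ranges overlapped over most of their length. The log2 difference was 0.063 for miR-30d (SE 0.069, 95% interval -0.077 to 0.20, adjusted p = 0.982 in limma) and 0.0036 for miR-30e-5p (SE 0.067, 95% interval -0.13 to 0.14, adjusted p = 0.986 in limma).

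The other kind, miR-30c, miR-30b-5p and miR-30f, had lower means in the HI calves, by less than the test could call. For miR-30c, whose precursor shares NFYC with that of miR-30e, the HI calves ran from 1826 to 2512 CPM with a median of 2169, and the MOD calves from 1892 to 2624 CPM with a median of 2352. Of the 15 HI calves 3 were above the MOD median, and of the 15 MOD calves 12 were above the HI median, although the ranges overlapped over most of their length. The log2 difference was -0.10 (SE 0.054, 95% interval -0.21 to 0.0060, adjusted p = 0.912 in limma). A permutation test of miR-30c on its own gave p = 0.0405, which is not adjusted for the 476 miRNAs tested.

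MiR-30b-5p ran from 1303 to 2486 CPM in the HI calves (median 1844) and from 1478 to 2897 CPM in the MOD calves (median 2028), with 4 HI calves above the MOD median and 12 MOD calves above the HI median. Its log2 difference was -0.15 (SE 0.093, 95% interval -0.34 to 0.041, adjusted p = 0.912 in limma, unadjusted permutation p = 0.118). MiR-30f, the least abundant member, ran from 361 to 673 CPM in the HI calves (median 474) and from 380.0 to 661 CPM in the MOD calves (median 521). Both its lowest value (A27864) and its highest (A42931) were those of HI calves. Its log2 difference was -0.15 (SE 0.083, 95% interval -0.32 to 0.018, adjusted p = 0.912 in limma, unadjusted permutation p = 0.0735).

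These 3 differences were smaller where the animal codes were allowed for. The code classes were found from values of these libraries and are split unevenly over the diets, so diet and code class cannot be fully told apart here. With the class of the 9 lowest codes as a term, the log2 difference was -0.037 for miR-30c, -0.040 for miR-30b-5p and -0.059 for miR-30f, and that of miR-30a-5p was -0.10 (unadjusted p between 0.248 and 0.638 for these 4 in limma). With the depth class as a term, that of miR-30c was -0.074, of miR-30f -0.097 and of miR-30b-5p -0.14. Within the shallower libraries the 12 HI and 9 MOD calves differed in miR-30f by -0.17 (exact permutation p = 0.0509), and within the deeper ones the 3 HI and 6 MOD calves by 0.076 (exact permutation p = 0.524). Within the 21 calves of the other codes, miR-30c differed by -0.057 (exact permutation p = 0.206, n = 8 HI and 13 MOD), miR-30b-5p by -0.084 (exact permutation p = 0.322) and miR-30f by -0.053 (exact permutation p = 0.553). The interaction of diet with depth class or with code class passed for 0 of the 6 members (lowest adjusted p = 0.815 in limma). With 7 HI and 2 MOD calves among the lowest codes, an exact two-sided test there cannot go below p = 0.0556.

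**Figure D2:**
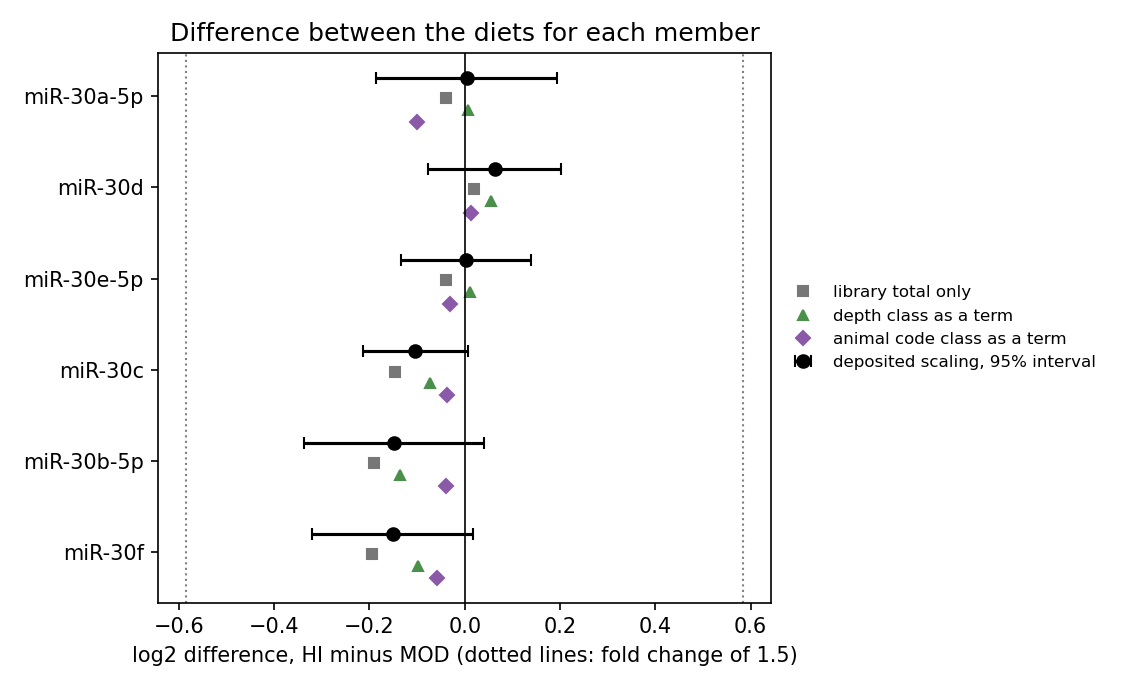
Log2 difference of HI minus MOD for each member from limma, with the 95% interval for the deposited scaling (black) and the estimates with the library total as the only scaling (grey), with depth class as a term (green) and with animal code class as a term (purple). Every black interval includes 0 and lies inside the dotted lines at a fold change of 1.5.

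The summed family level covered overlapping ranges in the diets. The HI calves had 40879 ± 5686 CPM (SD, n = 15) and the MOD calves 40728 ± 4817 CPM (SD, n = 15), a difference of 152 CPM with a 95% interval of -3794 to 4098. As a share of all reads counted on miRNAs, the family took 4.01% ± 0.37 in the HI calves and 4.13% ± 0.50 in the MOD calves. The highest summed level was 55208 CPM in HI calf A37824 and the lowest 33260 CPM in MOD calf A87886. The share of miR-30f within the family was 1.18% ± 0.23 in the HI calves and 1.30% ± 0.22 in the MOD calves, and that of miR-30d 21.4% ± 1.61 and 20.5% ± 1.59, both with intervals of the difference that include 0 (-0.29 to 0.041 and -0.34 to 2.06 percentage points).

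The make-up of the family differed more along the animal codes than between the diets. The boundary of the code classes was found in earlier work from values of these libraries, so values can separate at it by that choice. The following is a description with no test. MiR-30a-5p, miR-30d and miR-30e-5p together made up 89.6% to 91.1% of the family in the 9 calves with the lowest codes (median 90.7%) and 85.7% to 89.3% in the other 21 (median 86.8%), with no overlap. Of these 3, miR-30a-5p alone had a higher share in the low codes, with a mean of 50.6% against 46.5%. The mean share of miR-30d was 20.95% in both classes, and that of miR-30e-5p was 19.0% against 19.8%. Within the other 21 the diets shared that range, with medians of 86.8% for the 8 HI calves and 87.0% for the 13 MOD calves, and both MOD calves with low codes, at 90.7% and 90.9%, lay with the 7 HI calves of that class.

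By share of the family, the other kind was lower in the low codes. The means were 3.78% against 5.32% for miR-30b-5p, 4.73% against 6.09% for miR-30c and 0.98% against 1.35% for miR-30f. The ratio of miR-30a-5p to its genome neighbour miR-30f was 44.8 to 56.8 in the low codes and 29.7 to 44.6 in the others, narrowly without overlap. For every other pair of members the ranges of the ratio overlapped. For miR-30a-5p over miR-30b-5p, for example, they were 3.59 to 4.08 against 2.53 to 3.65 on the log2 scale. How often other miRNAs separate at this boundary, itself found from values of these libraries, was not tested. In CPM, miR-30a-5p ran from 18658 to 27996 (median 21980) in the low codes and from 14368 to 23677 (median 17433) in the others. As a share of all reads that step was small, with medians of 1.92% against 1.84% and means of 1.93% against 1.94%. MiR-30c ran the other way in CPM, from 1826 to 2276 (median 2078) against 2086 to 2624 (median 2352). The medians of miR-30b-5p were 1533 against 2028 CPM and those of miR-30f 426 against 521 CPM, in both cases with overlapping ranges. What else differs between these calves is not in the labels.

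**Figure D3:**
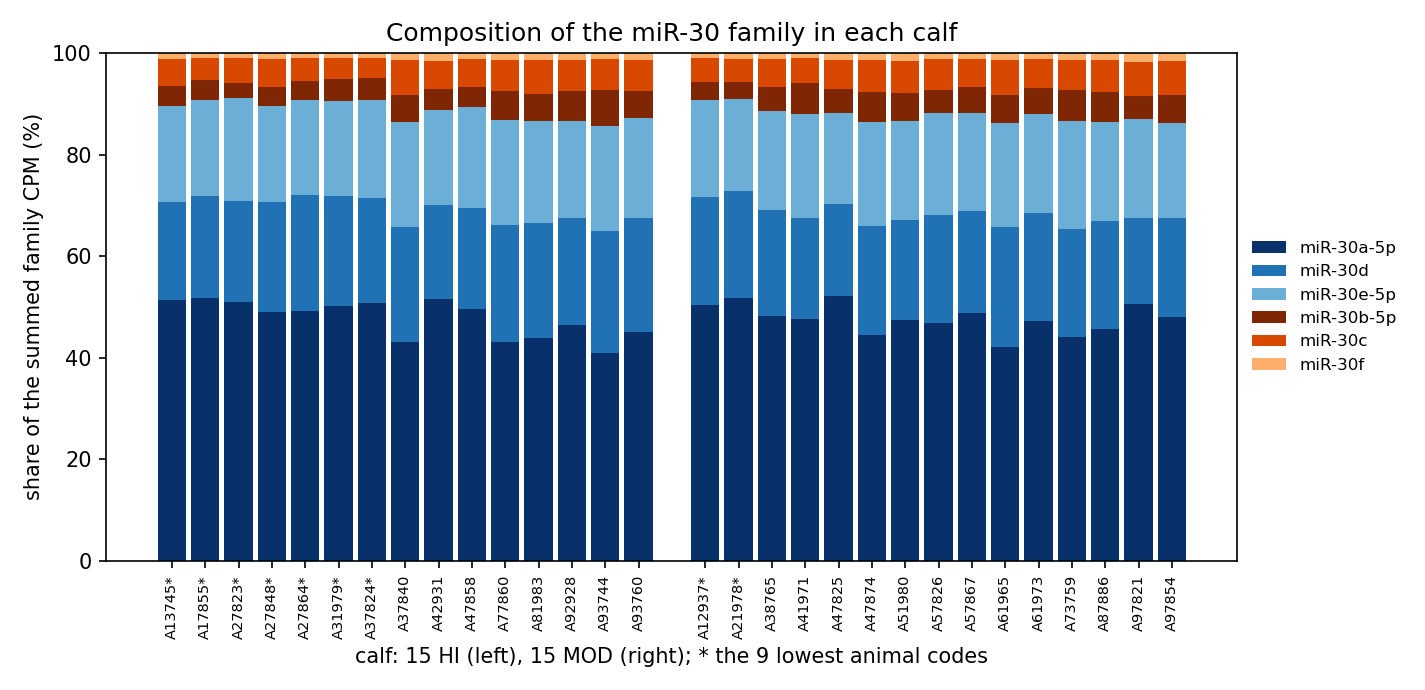
Share of each member in the summed family CPM (%), 1 bar per calf, with 15 HI calves on the left and 15 MOD calves on the right, and stars at the 9 lowest animal codes. The starred bars reach 89.6% or more for miR-30a-5p, miR-30d and miR-30e-5p (blue) together, and every other bar stays at 89.3% or less. The boundary of the starred class was found from values of these libraries.

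Depth and pituitary miRNAs also moved with some members. MiR-30f had a median of 561 CPM in the 9 deeper libraries (474 to 673) and 473 CPM in the 21 shallower ones (361 to 587), and miR-30c 2501 against 2169 CPM. The shallower class holds all 9 calves with the lowest codes, whose medians were 426 CPM for miR-30f and 2078 CPM for miR-30c. These steps therefore mix depth with code class. In the 9 calves with high pituitary miRNAs the median of miR-30a-5p was 23240 CPM against 18658 CPM in the other 21, that of miR-30d 9191 against 8345 CPM, that of miR-30e-5p 8599 against 7562 CPM and that of miR-30b-5p 2301 against 1982 CPM. MiR-30c showed no such step, with 2276 against 2319 CPM. The steps with the pituitary miRNAs depended on the scaling. As a share of all reads, which leaves out the TMM scaling, the medians in those 9 calves against the other 21 were 0.165% and 0.218% for miR-30b-5p, 0.825% and 0.849% for miR-30d, 0.788% and 0.812% for miR-30e-5p and 0.203% and 0.256% for miR-30c, all lower in those 9. For miR-30a-5p they were 1.96% and 1.87%, and for the family 3.86% and 3.95%. The part of pituitary tissue in these levels was not tested.

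The SD of each member was below the median of the 476 miRNAs tested, a set that includes miRNAs with few reads. No set of like abundance was compared. The SD of log2(CPM + 0.25) over the 30 libraries was 0.14 for miR-30c, the 8th lowest of 476, against a median of 0.37 over all miRNAs tested. It was 0.17 for miR-30e-5p and 0.18 for miR-30d. For miR-30f, miR-30a-5p and miR-30b-5p it was between 0.23 and 0.26, the 82nd, 98th and 109th lowest. The rank depended on the scaling. With the library total as the only scaling, miR-30a-5p was the 11th steadiest (SD 0.17) and miR-30c the 85th (SD 0.27), against a median of 0.45. MiR-30f was then the 129th and miR-30b-5p the 153rd.

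Pooled over the 30 libraries, the pairs of members that varied together were of one sequence kind. Within the other codes pairs across the kinds did so too. Within the low codes such pairs passed by Pearson's r but not by rho. Grouping the members by kind was done after the correlations had been seen, so it is a description. Of the 15 pairs, 5 passed an adjusted p under 0.05 for Pearson's r of log2(CPM + 0.25) (permutation test, Benjamini-Hochberg over the 15 pairs), and all 5 joined members of one kind. MiR-30c and miR-30f had r = 0.84 (rho = 0.86, adjusted permutation p = 5e-05 for both), miR-30d and miR-30e-5p r = 0.83 (rho = 0.84, 5e-05 for both), and miR-30a-5p and miR-30e-5p r = 0.80 (rho = 0.78, 5e-05 for both). Without the 2 calves farthest from the median these were 0.78, 0.84 and 0.76. MiR-30a-5p and miR-30d had r = 0.61 (rho = 0.59, adjusted permutation p = 0.0006 and 0.00281), and miR-30b-5p and miR-30c r = 0.51 (rho = 0.44, adjusted permutation p = 0.0115 and 0.0468).

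The genome neighbours were not among these 5. MiR-30a-5p and miR-30f had r = 0.13 (rho = 0.13, adjusted permutation p = 0.612 and 0.654), miR-30b-5p and miR-30d r = 0.24 (rho = 0.28, adjusted permutation p = 0.336 and 0.276) and miR-30c and miR-30e-5p r = 0.24 (rho = 0.26, adjusted permutation p = 0.336 and 0.309). These pooled values span the step between the code classes, and within each class r was higher. Within the 21 calves of the other codes it was 0.62 for miR-30a-5p and miR-30f (adjusted permutation p = 0.00919), 0.57 for miR-30b-5p and miR-30d (0.0152) and 0.62 for miR-30c and miR-30e-5p (0.00984). Within the 9 calves of the low codes it was 0.72 (adjusted exact permutation p = 0.0575), 0.81 (0.0208) and 0.62 (0.125) for the same pairs. In all, 8 of 15 pairs passed in the other codes, 5 of them across the kinds, among which miR-30a-5p with miR-30c (r = 0.58) and miR-30b-5p with miR-30e-5p (r = 0.49) are no neighbours. In the low codes 7 passed, 3 of them across the kinds. Among these, r was 0.82 for miR-30a-5p and miR-30b-5p and 0.77 for miR-30b-5p and miR-30e-5p. Leaving out the 2 most distant calves lowered miR-30b-5p with miR-30e-5p to 0.026 in the other codes and 0.22 in the low codes. The rho of that pair in the other codes did not pass (adjusted permutation p = 0.0703). Neighbours miR-30b-5p and miR-30d fell to 0.40 and 0.39. Smaller drops were seen in the other codes for miR-30a-5p with miR-30f (0.61) and miR-30c (0.55), and miR-30c with miR-30e-5p (0.51). In the low codes miR-30a-5p with miR-30b-5p fell to 0.62. With the library total as the only scaling, 11 of the 15 pairs passed over all 30 calves, 5 of them across the kinds, and r was 0.26, 0.60 and 0.70 for the 3 neighbour pairs (adjusted permutation p = 0.192, 0.00118 and 0.00021).

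The pairs of one kind held up unequally. MiR-30d and miR-30e-5p kept r between 0.67 and 0.90 in each diet, depth class and code class taken alone, and miR-30c and miR-30f kept 0.53 to 0.83, the lowest in both cases within the 9 deeper libraries (adjusted exact permutation p = 0.320 and 0.428). MiR-30a-5p and miR-30d had r = 0.13 in the deeper libraries and 0.35 in the 21 calves without high pituitary miRNAs. MiR-30b-5p and miR-30c had r = 0.39 in the low codes and -0.0076 in the other codes, so the pooled value includes the step between the code classes. All points share the library and its scaling.

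**Figure D4:**
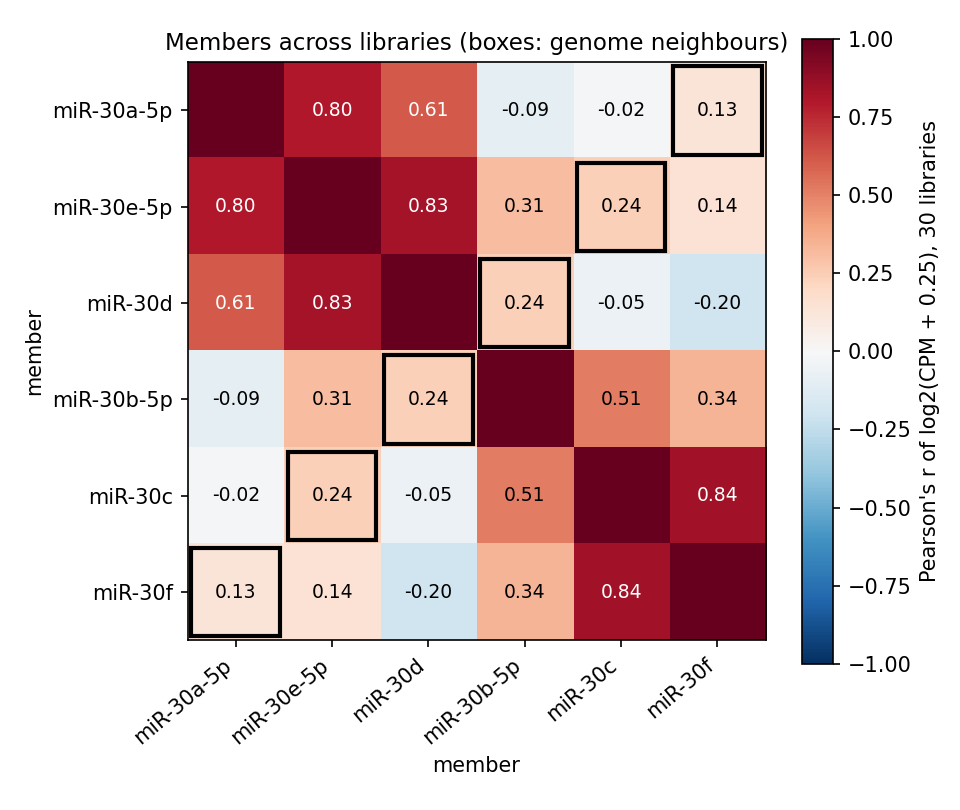
Pearson's r of log2(CPM + 0.25) over 30 libraries for each pair of members, ordered by sequence kind, with genome neighbours boxed. In these pooled values the darkest cells, 0.80 to 0.84, join members of one kind, and the boxed cells hold 0.13 to 0.24, against 0.57 to 0.62 within the other codes.

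The ratio of 2 members within a library gave a view free of any scaling. Its SD was smallest for miR-30d over miR-30e-5p (0.10 on the log2 scale), followed by miR-30c over miR-30f (0.14) and miR-30a-5p over miR-30e-5p (0.15). The neighbours miR-30c and miR-30e-5p came next at 0.19, whereas miR-30b-5p over miR-30d had 0.28 and miR-30a-5p over miR-30f 0.32, the 10th and 13th of the 15 pairs. Within the other codes alone these 3 were 0.13, 0.16 and 0.19, which compares with 0.10 for miR-30d over miR-30e-5p and 0.14 for miR-30c over miR-30f. Near-identical members such as miR-30c and miR-30f can exchange reads in counting, and the share of such reads is not known. All 180 member values came out as whole reads, but a read given to the wrong member is also whole.

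Among the 469 other miRNAs tested, the one whose pattern was most like that of a member was sought for each by Pearson's r over the 30 libraries. For miR-30b-5p it was miR-335, which lies in an imprinted gene in mammals, with r = 0.85 and rho = 0.84, and it stayed first by rho and, at r = 0.92, with the library total as the only scaling. For miR-30f it was miR-195 (r = 0.69), ranked second under library total scaling with r = 0.84. For miR-30c it was miR-497 (r = 0.77), ranked 26th under that scaling, also with a higher r of 0.85. MIR195 and MIR497 are listed as neighbours on chromosome 19 and their miRNAs belong to the miR-15/16 family, which restrains the cell cycle. For miR-30a-5p it was miR-92a (r = 0.84, and 0.56 at rank 2 under library total scaling). MiR-1911 for miR-30d (r = 0.75) and miR-2285f for miR-30e-5p (r = 0.82) fell to r = 0.43 and 0.34 and to ranks 164 and 210 under library total scaling.

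For the summed family the closest were miR-320a (r = 0.81), miR-2285f (0.80), miR-21-5p (0.79), miR-25 (0.79) and miR-2285da (0.79). Of these, miR-320a alone kept its place under library total scaling, first at r = 0.72, whereas the other 4 ranked between 199 and 348 of 469. Likeness here is a description over 30 libraries that share their scaling and span the code classes.

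**Figure D5:**
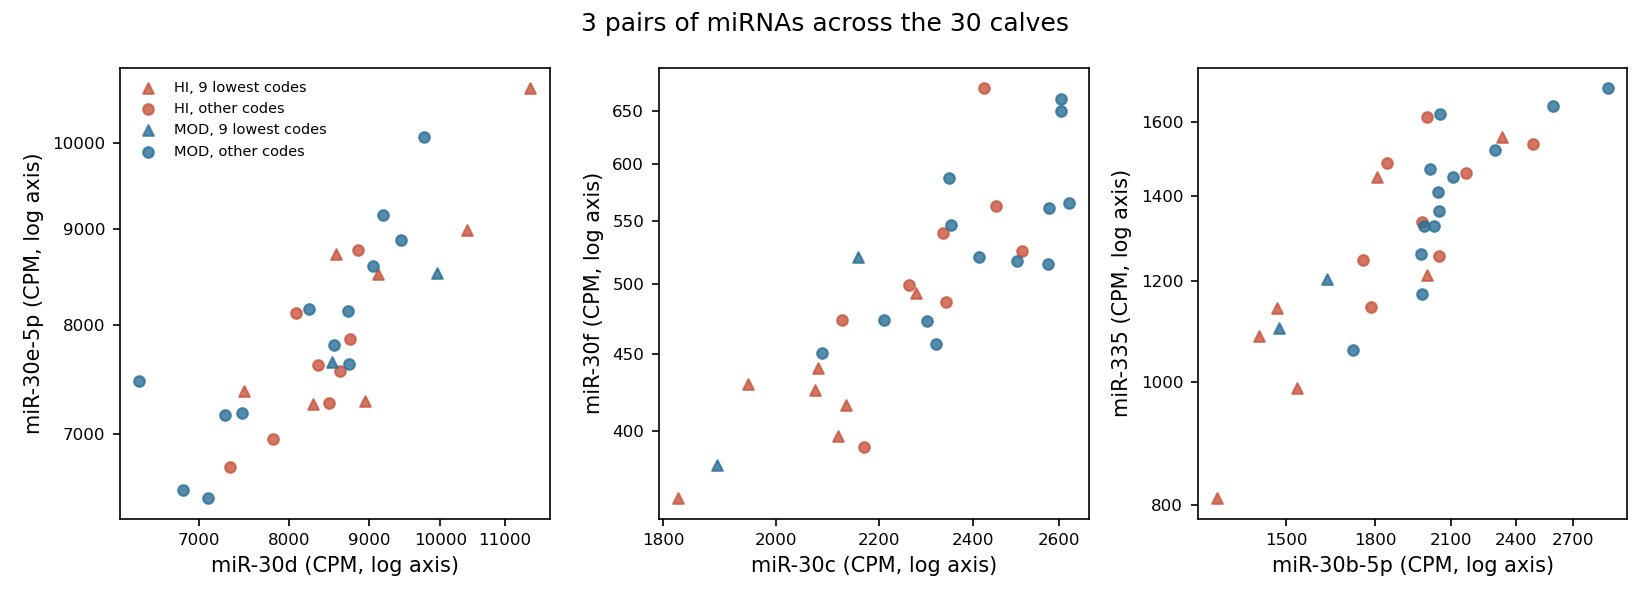
Levels in CPM on log axes for miR-30d and miR-30e-5p, miR-30c and miR-30f, and miR-30b-5p and miR-335 over the 30 calves, with HI in red, MOD in blue and triangles for the 9 lowest animal codes. The pairs rise together with r of 0.83, 0.84 and 0.85, and most triangles lie at the low end for miR-30c, miR-30f and miR-30b-5p.

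Members were set against 8 lists of miRNAs typical of cells that ARC tissue can hold, each scored as a mean of standardized log2 levels, and 6 of 54 relations passed an adjusted p under 0.05 (permutation test, Benjamini-Hochberg over the 54). With the library total as the only scaling of both sides 11 passed, and 3 passed under both scalings, 2 of them with the same sign. In bulk tissue, fewer cells of a type and less RNA per cell cannot be told apart.

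The first that kept its sign was miR-30d with the pituitary list within the 21 calves that were not high in it, with r = 0.68 (rho = 0.63, adjusted permutation p = 0.0105 and 0.0311) and 0.62 without the 2 farthest calves. Under library total scaling r was 0.79 (adjusted permutation p = 0.0009). In the 9 calves high in the list it was 0.53 (exact permutation p = 0.144), and -0.24 under library total scaling (exact permutation p = 0.521). The other was miR-30f with the leukocyte list, which holds miR-142, miR-223, miR-150 and miR-155, with r = 0.55 (rho = 0.59, adjusted permutation p = 0.0158 and 0.0128) and 0.66 under library total scaling of both sides (adjusted permutation p = 0.00135). With miR-30f alone scaled by the library total, r was 0.30. Under the deposited scaling it was 0.72 in the HI calves, 0.31 in the MOD calves, 0.45 and 0.43 in the shallower and deeper libraries, and 0.61 and 0.46 in the low and other codes.

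Relations with the neuronal list, which holds miR-124, miR-9 and others, depended on the scaling. MiR-30a-5p had r = -0.73, miR-30e-5p -0.75 and miR-30d -0.55 with it (adjusted permutation p = 0.00054, 0.00054 and 0.0158), but 0.016, 0.42 and 0.49 under library total scaling. MiR-30c and miR-30f had 0.10 and 0.064, and 0.79 and 0.65 under library total scaling. MiR-30b-5p had r = -0.63 with the oligodendrocyte list of miR-219 and miR-338 (adjusted permutation p = 0.00324), between -0.46 and -0.84 in each diet, depth class and code class alone, and -0.29 under library total scaling (adjusted permutation p = 0.267).

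Other miRNAs linked to the onset of puberty in the hypothalamus, a list of 12 that holds let-7, miR-132, miR-145, miR-155, miR-9, miR-7 and the miR-200 family, were compared between the diets in the same fit. Of the 11 tested, 0 were called and 1 had an unadjusted p under 0.05 in limma (21 of all 476). In the HI calves 9 had a higher and 2 a lower mean, and the median log2 difference was 0.022 against -0.0022 over all 476. The highest was miR-200a, which with its family represses Zeb1 upstream of gonadotropin-releasing hormone and is also a pituitary marker here, with a log2 difference of 0.89 (adjusted p = 0.982 in limma). The lowest was miR-145, also a marker of vascular smooth muscle, at -0.46 (adjusted p = 0.878 in limma). The miR-200 family and miR-7 are on the pituitary list too, so the 2 lists are not separate readings. All 8 tested miRNAs of the pituitary list had a higher mean in the HI calves, with a median log2 difference of 0.64 against -0.0022 over all 476. Of these 8, 0 were called and 0 had an unadjusted p under 0.05 in limma. The counts of direction in both lists were not tested.

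Of the opposite arms, miR-30b-3p was analysed here, the strand of its precursor that is mostly discarded. It had 19 to 82 reads per library and 3.28 ± 0.70 CPM (SD, n = 30), and miR-30b-5p was at a median 590-fold above it (376-fold to 916-fold). The HI calves had 3.39 ± 0.73 CPM of it and the MOD calves 3.17 ± 0.68 CPM, and its log2 difference of 0.092 (SE 0.11, adjusted p = 0.982 in limma) had the opposite sign to that of its 5p arm, with neither called. Across the 30 libraries the 2 arms had r = 0.27, at read numbers for the 3p arm that leave a wide counting error.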

How the data were processed

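Reads were cleaned of adapters by the authors (Cutadapt), limited to 15 to 28 bases, filtered against other short RNAs and assigned to miRBase miRNAs of cattle by miRDeep2 with Bowtie (ARS-UCD1.2). The signal values they deposited, 1 per calf and miRNA, are decimals of the form of CPM over TMM-scaled library sizes. Whole reads were recovered from the 1-read step of each library (94.5% to 97.9% of values under 200 reads were whole within 0.03) and rounded for count tests. The diets were compared with limma 3.58.1 (eBayes with a trend) on log2(CPM + 0.25) over 476 miRNAs kept by filterByExpr (1.16 CPM in 14 libraries), with Benjamini-Hochberg adjustment. This scale understates changes of miRNAs with few reads. Single values used two-sided permutation tests (100000 resamples, or exact). Alternatives used edgeR 4.0.16 and DESeq2 1.42.0. Tissue lists were related to each member, in place of a planned summed score. The code was tested on simulated data. Named miRNAs are the members, miR-30b-3p, the closest patterns and list extremes. Members, lists and the code classes were chosen with earlier results of these data known. Calves were numbered in list order, and p-values cover the spread between calves.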

Additional observations from a re-analysis of the deposited data

How the results depend on the processing

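Across 12 other fits and 30 fits without 1 calf each, no member was called (lowest adjusted p = 0.639, with a member at an unadjusted p under 0.05 in 7 fits, such as miR-30c at 0.0188 without A12937 and miR-30f at 0.0210 without A42931), and miR-30b-5p, miR-30c, miR-30d and miR-30f kept their direction. MiR-30a-5p and miR-30e-5p, both near 0, changed sign with the library total only (-0.039 and -0.039), code class (-0.10 and -0.031), the pituitary score (-0.019 and -0.018) and without the calf with the highest score (-0.034 and -0.027). MiR-30a-5p did so also without all calves high in it (-0.018). Without 1 calf each, miR-30a-5p ranged from -0.034 to 0.035, miR-30e-5p from -0.027 to 0.029, and the count of called miRNAs from 0 to 1 (1 without A77860 or A97854, as in DESeq2, each time miR-2419-3p). Within classes, an alternative chosen after seeing the data, signs changed for miR-30a-5p (shallower -0.034, low codes -0.014, other codes -0.13), miR-30e-5p (other codes -0.055) and miR-30f (deeper 0.076), for miR-30b-5p, miR-30c and miR-30d in low codes (0.10, 0.028 and -0.018), and for miR-30b-3p (deeper -0.038, low codes -0.092). The ratio of miR-30d to miR-30e-5p was 0.036 and no longer past the threshold in the deeper libraries. Correlated pairs numbered 5, 11 with the library total only, 0 in the deeper libraries, 8 in other codes and 3 in MOD, and relations with lists 6 and 11. Of the 15 pair correlations, 9 changed sign in at least 1 of 9 settings, for example miR-30a-5p and miR-30b-5p (-0.088, and 0.82 in low codes) and miR-30b-5p and miR-30f (0.34, and -0.36 in other codes). Among the pairs past the threshold or neighbouring in the genome these were miR-30a-5p and miR-30f (shallower, -0.032), miR-30b-5p and miR-30c (other codes, -0.0076) and miR-30b-5p and miR-30d (without calves high in pituitary miRNAs, -0.071). The cause was not tested. No paired analysis was possible because each calf had 1 diet and its number is only its place in the list.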
